A study of Sus scrofa domesticus with 34 samples.

Results

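The circadian clock genes PER1, PER2, NR1D1, NR1D2, DBP, TEF, CLOCK, CRY1 and CRY2 were described across 34 pig 3′ mRNA sequencing libraries from 4 vitamin D diets. They were found by Ensembl identifier through a table of identifiers and symbols. Of the 10 clock genes named for the description, 9 had an identifier there, out of 31907 genes in the count files and 15029 genes with a symbol, and PER3 was not analysed here. All 9 passed the filter on low counts that left 13974 genes for testing.

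Each library was labelled as muscle of 1 animal, and the labels gave no age and no time of sampling. On standard cholecalciferol (vitamin D3) there were 8 animals, 4 of them females, fed 2000 IU per kg as growers and 1500 IU per kg as finishers. On increased cholecalciferol there were 10, 6 of them females, fed 3000 IU and later 2500 IU per kg. On the combination there were 8, 4 of them females, given the standard amounts of cholecalciferol plus 1000 IU of 25(OH)D per kg throughout. On 25(OH)D alone, the 25-hydroxylated form of the vitamin, there were 8, 4 of them females, fed 2000 IU and later 1500 IU of it per kg with no cholecalciferol. All other animals were castrated males.

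The clock is a feedback loop that runs in nearly every cell. CLOCK, or its paralog NPAS2, pairs with BMAL1 and switches on the PER and CRY genes, whose proteins then shut that pair off. The same pair switches on NR1D1 and NR1D2 (REV-ERBα and REV-ERBβ), which repress BMAL1, and DBP and TEF, which activate genes at D-box sites where NFIL3 represses them. In rodent tissues the PER, REV-ERB, DBP and TEF transcripts tend to peak in one part of the day and BMAL1, NPAS2, CLOCK, CRY1 and NFIL3 in another. Samples taken at different hours can therefore differ in opposite directions in these groups. The peaks within a group are spread over hours, so genes of different groups can also move together between some hours.

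Total gene counts ran from 1.34 to 30.4 M (1 M is 1000000 reads) per library (median 6.67 M). The libraries with file numbers 25 to 29 were the deepest (5 libraries, 16.8 to 30.4 M), and those with file numbers 30 to 34 the shallowest (5 libraries, 1.34 to 2.69 M, 4 of them combination and 1 25(OH)D). The labelled tissue was checked on marker lists, as the mean log2 CPM (counts per M reads counted in genes) of a list. The skeletal muscle list (9 genes measured) lay between 4.71 and 7.31, below the neuron list (9 genes, 8.42 to 9.40) in every library, and the oligodendrocyte list (8 genes) lay between 5.58 and 7.82 and the astrocyte list (7 genes) between 6.26 and 7.45. No gene of these lists was at 0 in all libraries. MYH1, MYH2, MYH7, TTN, MB and MYLPF had no identifier and are missing from the muscle list. As summed CPM the ranges of the lists overlapped, at 1405 to 8517 for muscle and 4256 to 10129 for neurons. With the mean log2 CPM of the neuron list above that of the muscle list in all 34 libraries, the data go against the label of muscle. The tissue behind every level below is in doubt. The mean of 12 cerebellar genes minus the mean of 12 forebrain genes, called the regional difference here, placed the libraries in 3 separate sets. It was 0.23 to 1.62 in 20 libraries, 2.38 to 3.18 in 7 and 4.45 to 5.85 in 7, on the log2 CPM scale. The middle set held 5 combination and 2 25(OH)D libraries and none from the other diets.

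All 9 clock genes were detected in every library. QuantSeq reads 1 fragment at the 3′ end of a transcript and its counts do not grow with transcript length. Whether the annotation covers the 3′ end of each gene was not checked, and 16.4 to 29.9% of reads lay outside its features. The order of genes below is thus one of counted reads and may differ from that of transcripts. TEF and PER1 had the highest CPM. TEF ranged over 65.0 to 148.4 CPM (median 97.2), and PER1, the period gene that also answers acutely to stimuli, over 65.6 to 147.3 CPM (median 100.2). CRY2 followed at 35.9 to 84.8 CPM (median 60.1), and CLOCK at 30.0 to 74.7 CPM (median 52.5). DBP lay at 17.4 to 61.0 CPM (median 36.2), PER2 at 12.6 to 60.3 CPM (median 25.8), NR1D2 at 8.44 to 34.3 CPM (median 19.9) and CRY1 at 7.45 to 28.6 CPM (median 14.4). The ranges of all neighbours in this order overlapped, apart from the last step down to NR1D1.

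NR1D1 was the lowest, at 0.34 to 5.67 CPM (median 2.08), and lay in every library below the lowest CRY1 value. These levels rest on 3 to 83 reads per library (median 11.5), with 10 or fewer reads in 15 libraries. Counting error alone, taken from the raw counts, gives an SD of 0.48 on the log2 scale. The observed SD between libraries was 0.65, from log2 CPM with a prior count of 3, which shrinks differences at low counts. For NR1D1 these SDs are not on the same scale, so its variation beyond counting error cannot be read from them. For the other 8 genes the counting SD was between 0.06 (TEF) and 0.16 (CRY1), against observed SDs between 0.23 (PER1) and 0.49 (NR1D2). In the pig annotation NR1D1 overlaps THRA, CLOCK overlaps TMEM165, and CRY1 overlaps 4 genes that include MTERF2 and TMEM263. No source used here says whether counting used strand, and without strand the reads of overlapping genes cannot be told apart.

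**Figure D1:**
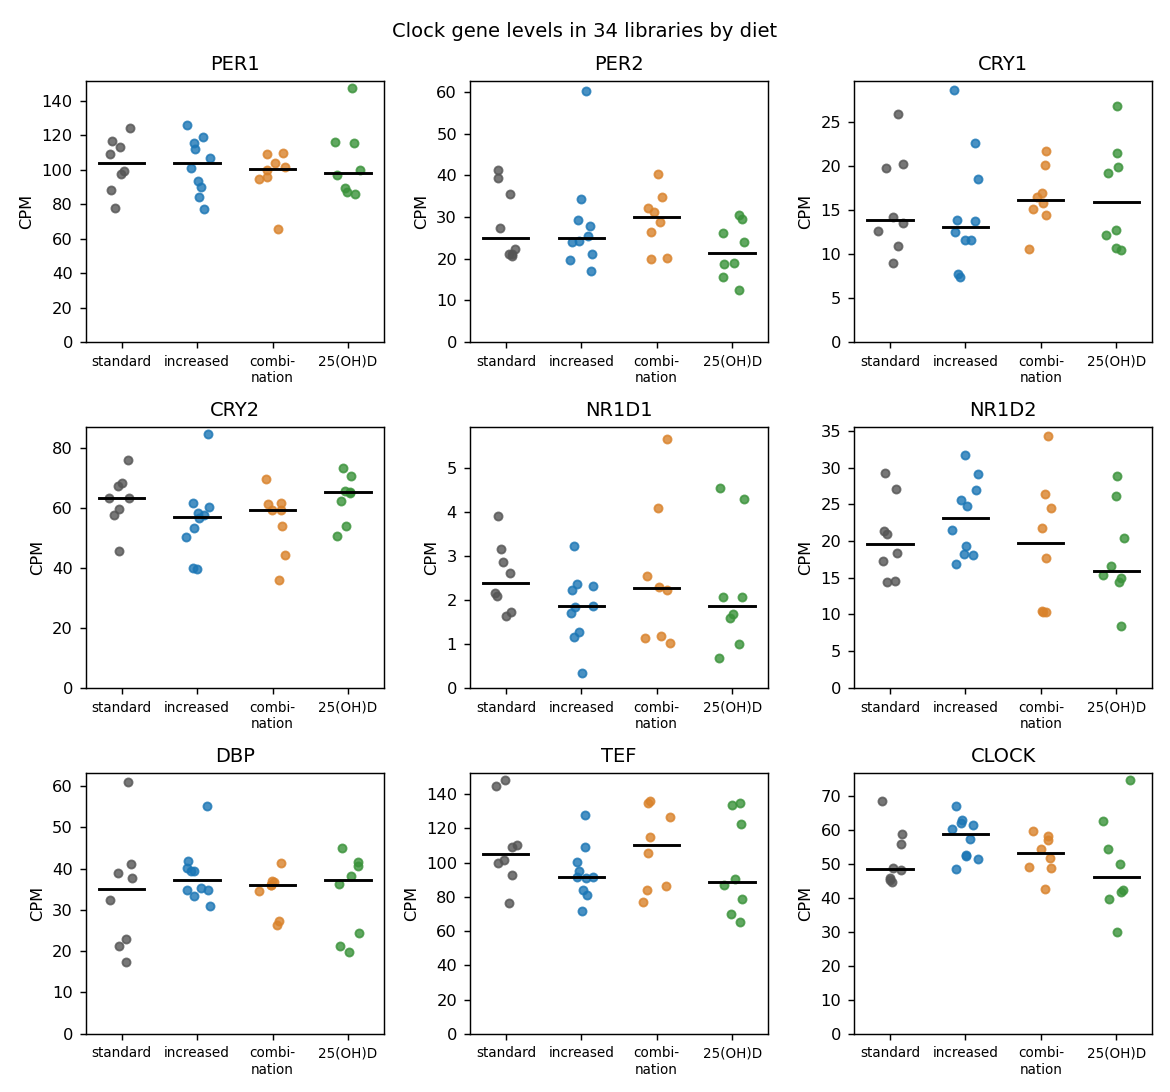
CPM of each clock gene (vertical axes, starting at 0) in each library, by diet on the horizontal axes; points are libraries and bars are diet medians. The diets overlap for every gene, and single libraries stand apart for PER2 at 60.3 CPM, for PER1 at 65.6 CPM and for CRY2 at 84.8 CPM.

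The repressors of the loop differed little between diets. PER1 had its median at 104.1 CPM on standard cholecalciferol (78.0 to 124.2), 103.7 on increased cholecalciferol (77.1 to 126.0), 100.6 on the combination (65.6 to 109.5) and 98.3 on 25(OH)D (85.7 to 147.3). PER2 had its median at 24.9 CPM on standard cholecalciferol (20.6 to 41.3), 24.9 on increased cholecalciferol (17.1 to 60.3), 30.0 on the combination (19.9 to 40.4) and 21.5 on 25(OH)D (12.6 to 30.5). The diets overlapped for both period genes, and the lowest PER2 level belonged to a 25(OH)D library. CRY1 had its median at 13.9 CPM on standard cholecalciferol (8.99 to 25.96), 13.1 on increased cholecalciferol (7.45 to 28.6), 16.1 on the combination (10.6 to 21.8) and 15.9 on 25(OH)D (10.5 to 26.8). CRY2 had its median at 63.4 CPM on standard cholecalciferol (45.7 to 76.05), 57.2 on increased cholecalciferol (39.6 to 84.8), 59.3 on the combination (35.9 to 69.9) and 65.4 on 25(OH)D (50.7 to 73.3). Both cryptochromes, which carry the repression with the PER proteins, overlapped between all diets.

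The REV-ERB genes, the link back to BMAL1, overlapped between diets as well. NR1D2 had its median at 19.7 CPM on standard cholecalciferol (14.4 to 29.2), 23.1 on increased cholecalciferol (16.9 to 31.7), 19.7 on the combination (10.36 to 34.3) and 16.0 on 25(OH)D (8.44 to 28.8). NR1D1 had its median at 2.39 CPM on standard cholecalciferol (1.63 to 3.91), 1.85 on increased cholecalciferol (0.34 to 3.22), 2.27 on the combination (1.03 to 5.67) and 1.87 on 25(OH)D (0.69 to 4.55). The diets overlapped for both, and the lowest and highest NR1D1 values come from libraries with 3 and 12 reads of the gene.

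Among the output activators, DBP had its median at 35.0 CPM on standard cholecalciferol (17.4 to 61.0), 37.3 on increased cholecalciferol (31.04 to 55.1), 36.0 on the combination (26.4 to 41.3) and 37.2 on 25(OH)D (19.9 to 44.9). The standard cholecalciferol libraries held both the lowest and the highest DBP level of the study. TEF had its median at 105.2 CPM on standard cholecalciferol (76.2 to 148.4), 91.6 on increased cholecalciferol (71.97 to 127.6), 110.2 on the combination (77.2 to 136.1) and 88.7 on 25(OH)D (65.0 to 134.6). CLOCK, the activating subunit, had its median at 48.4 CPM on standard cholecalciferol (44.8 to 68.5), 58.9 on increased cholecalciferol (48.6 to 67.1), 53.1 on the combination (42.8 to 59.9) and 46.2 on 25(OH)D (30.0 to 74.7). For these genes too the ranges of all 4 diets overlapped, and the lowest and highest CLOCK levels were both in 25(OH)D libraries.

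No clock gene passed the test in any diet comparison. With edgeR's quasi-likelihood test over all tested genes and an adjusted p of 0.05 as threshold, 0 of the 9 genes were called for increased against standard cholecalciferol, the combination against standard, 25(OH)D against standard, the combination against increased, 25(OH)D against increased and 25(OH)D against the combination. Of all tested genes, 0.0% were called in each of these 6 comparisons and in the joint test of any diet difference, which called 0 of the 9 as well. At an unadjusted p under 0.05, 0 of the 9 passed in any of them, where 7.77%, 4.34%, 3.23%, 4.14%, 12% and 7.57% of all tested genes did in the same order, and 6.71% in the joint test. Over the 54 tests of a gene in a diet pair, the smallest unadjusted p was 0.0696 and the smallest adjusted p 0.470.

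The largest differences were between 1 and 2 standard errors in size. PER2 on 25(OH)D differed from the combination by a log2 fold change of -0.42 (SE 0.22, adjusted p = 0.677), from standard cholecalciferol by -0.39 (SE 0.22) and from increased cholecalciferol by -0.36 (SE 0.21). NR1D2 differed by -0.38 (SE 0.21) between 25(OH)D and increased cholecalciferol, and NR1D1 by -0.47 (SE 0.36) between increased and standard cholecalciferol. In 51 of the 54 tests a 2-fold difference lay outside the 95% interval on either side, and the other 3 were all of NR1D1. The comparisons with standard cholecalciferol share its 8 libraries and the others share libraries as well, so the values are not independent. The median log2 fold change of the 9 genes lay between -0.09 and 0.02 over the 6 comparisons, against -0.01 to 0.01 for all tested genes. In these bulk samples, fewer cells of a type and less RNA per cell cannot be told apart.

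**Figure D2:**
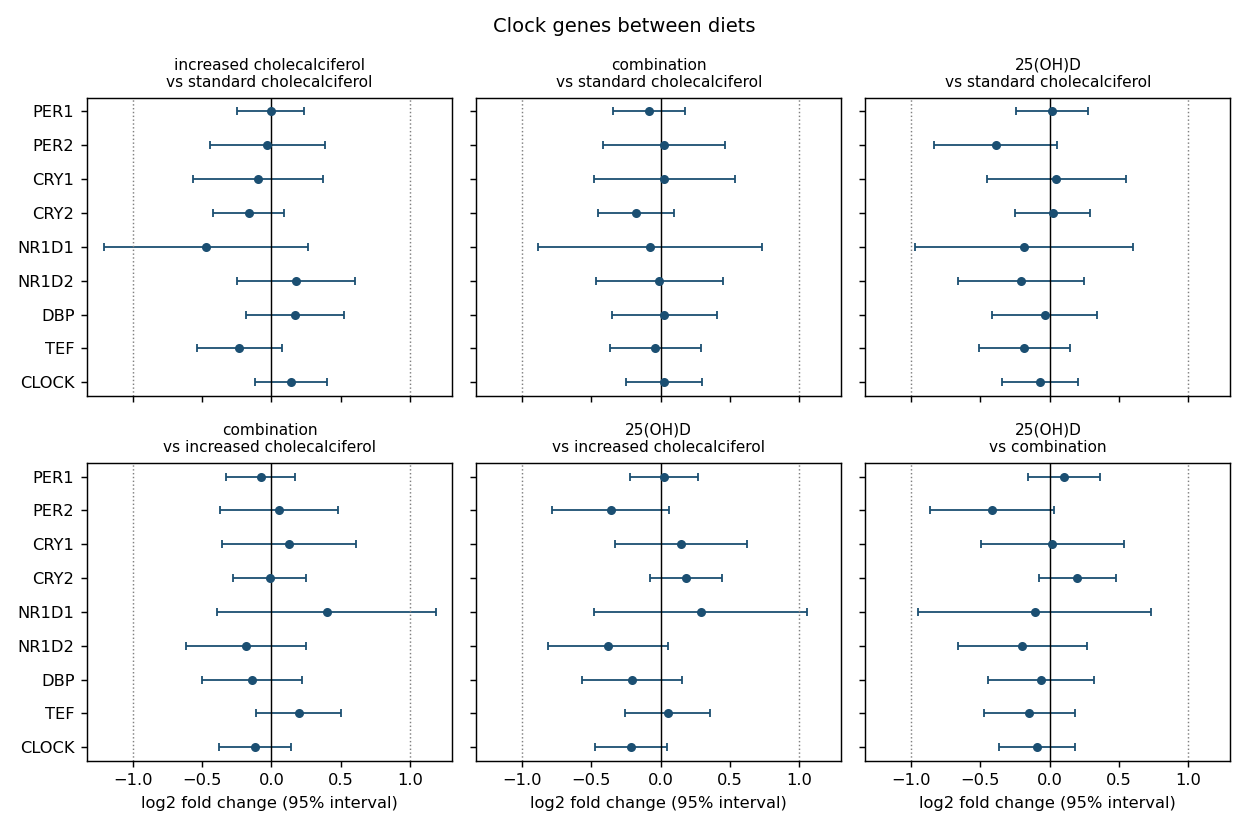
Log2 fold change (horizontal axes) of each clock gene in each pair of diets, with its 95% interval from the edgeR fit over 34 libraries; dotted lines mark a 2-fold difference. Every interval spans 0, and those that reach past a dotted line are of NR1D1.

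Sex changed no clock gene past the threshold either. Of the 9 genes, 0 were called between females and castrated males, where 0.0787% of tested genes were, and 0 of 9 in the diet by sex interaction, where 0.0% were (2.75% at an unadjusted p under 0.05, and 0 of the 9). DBP ranged over 21.1 to 61.0 CPM in 18 females (median 37.2) and over 17.4 to 44.9 CPM in 16 castrated males (median 33.5). Its log2 difference of 0.27 (SE 0.13) had an unadjusted p of 0.0443 and an adjusted p of 0.742, and 6.58% of all tested genes had an unadjusted p under 0.05. NR1D2, at 0.28 (SE 0.16), was next (adjusted p = 0.758).

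The other genes of the pathway gave the same count. Of 21 tested genes in lists of the positive limb, the second loop, turnover factors and outputs, 0 were called in any diet pair. At an unadjusted p under 0.05 there were 1, 2, 1, 0, 2 and 2 of the 21, in the order of comparisons above. BMAL1, the partner of CLOCK, was at 2.65 to 17.9 CPM (median 11.3), NPAS2 at 3.75 to 25.6 CPM (median 13.1) and NFIL3 at 6.46 to 33.5 CPM (median 11.8). BMAL1 differed by -0.58 between 25(OH)D and the combination and by -0.55 between 25(OH)D and increased cholecalciferol. CIART, a repressor of the CLOCK and BMAL1 pair, differed by -0.53 between 25(OH)D and the combination (adjusted p = 0.653), and RORA, which activates BMAL1 where the REV-ERBs repress it, by -0.67 between increased and standard cholecalciferol. Genes that respond to glucocorticoids or to stimulation, both of which act on PER1, were read beside them. Of 7 tested glucocorticoid-induced and 11 immediate early genes, 0 were called in any diet pair. At an unadjusted p under 0.05 there were 0, 0, 0, 0, 1 and 2 of the 7 glucocorticoid-induced genes in the same order, and 0, 0, 0, 3, 6 and 1 of the 11 immediate early genes. Between 25(OH)D and increased cholecalciferol, where 12% of all tested genes had such a p, 10 of the 11 immediate early genes had a log2 fold change below 0 (median -0.63). In the order of comparisons above, 3, 9, 9, 8, 10 and 6 of the 11 were below 0. The medians were 0.27, -0.21, -0.26, -0.46, -0.63 and -0.05. Of all tested genes, 48.3 to 50.8% lay above 0 in these comparisons. The 11 genes come from the same libraries, so these counts are not of independent values.

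Apart from diet, the clock genes differed in how far they varied between libraries. The biological coefficient of variation from the edgeR fit was 0.186 for PER1, 0.191 for CLOCK and 0.193 for CRY2, at the percentiles 7.86, 9.42 and 9.96 of all tested genes. TEF was at 0.229 (percentile 23.4) and DBP at 0.260 (33.9). PER2 and NR1D2 lay near the middle at 0.302 each (46.2 and 46.3), with CRY1 at 0.337 (54.3) and NR1D1 at 0.465 (75.3). BMAL1 had 0.352 (57.0), NFIL3 0.435 (71.3) and NPAS2 0.464 (75.3). This coefficient falls with abundance, so it was also set against the trend for genes of the same abundance. On that measure PER1, CLOCK and CRY2 stayed low, at the percentiles 17.2, 17.3 and 19.1, and NR1D1 (41.8), TEF (46.9) and DBP (54.5) lay near the middle. NR1D2 (62.9), PER2 (68.4) and CRY1 (70.9) lay above it, as did BMAL1 (64.1), NFIL3 (90.2) and NPAS2 (91.2). Thus PER1, CLOCK and CRY2 were among the steadier genes on both measures, while the places of the other 6 clock genes depended on the measure. The fit behind both measures had diet and sex as terms and none for the regional difference. Differences between the sets of libraries on the regional difference therefore enter both measures. They cannot be told apart here from variation between animals, and their part in this order was not tested.

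If the libraries had been spread over the day, genes of one phase would tend to go up and down together and genes in antiphase in opposite directions. The libraries were therefore read gene against gene, over 63 pairs made of 2 clock genes or of a clock gene with BMAL1, NPAS2 or NFIL3. Of these, 15 were called in phase (2 of NR1D1, NR1D2, DBP, TEF, PER1 and PER2). A further 30 were called phase-opposed (1 of those 6 against CRY1, CLOCK, BMAL1, NPAS2 or NFIL3). The 18 other pairs held CRY2 or were made of 2 genes of the second group, CRY1, CLOCK, BMAL1, NPAS2 and NFIL3. Pairs within the second group were thus not counted as in phase, although the grouping above puts them together. The names rest on that grouping and on no peak hours measured here. A phase-opposed pair need not be in strict antiphase, so a positive r in it does not decide whether sampling times differed. Pearson's r of log2 CPM over 34 libraries was tested by permutation (100000 resamples, two-sided), and p was adjusted over the 63 pairs. The points share the depth and the tissue make-up of their libraries.

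Of the 63 pairs, 18 passed, 14 positive and 4 negative, the smallest with an r of 0.44 in size. Among all pairs of tested genes, 6.32% had an r of 0.44 or more and 5.92% had one of -0.44 or less. In phase, 3 of 15 pairs passed, all positive. NR1D2 and DBP had an r of 0.53 (rho 0.48, adjusted permutation p = 0.00606), TEF and PER2 0.54 (rho 0.64) and DBP and PER2 0.49 (rho 0.40). The last did not pass by rho (adjusted permutation p = 0.0601), and it was also lost without increased cholecalciferol replicate 1 (r 0.41) or 25(OH)D replicate 3 (r 0.42).

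Among the phase-opposed pairs 10 of 30 passed, of which 7 were positive and 3 negative. NR1D2 and BMAL1, the repressor and its target, rose and fell together with an r of 0.73 (rho 0.76, adjusted permutation p = 0.000315), and DBP and BMAL1 with 0.62 (rho 0.50, adjusted permutation p = 0.00117). DBP and NFIL3 had 0.62 and TEF and NFIL3 0.70, although these factors act against each other at the same sites. The remaining positive pairs were TEF and CRY1 at 0.67, PER2 and CRY1 at 0.56, and PER2 and NFIL3 at 0.65. The 3 negative pairs all held NPAS2, with DBP (r -0.44), TEF (r -0.56) and PER2 (r -0.56). Over all 30 phase-opposed pairs 18 had an r above 0, as had 10 of the 15 in-phase pairs. The median r was 0.14 and 0.28. With scaling by total gene counts in place of TMM (the trimmed mean scaling used for the levels of single genes), 8 of the 15 in-phase pairs passed (median r 0.38), all positive. Of the 30 phase-opposed pairs 17 passed (median r 0.27), 14 of them positive. Under that scaling 53 of all 63 pairs had an r above 0, against 39 with TMM. The share of all pairs of tested genes was not computed there, so these counts are not read as particular to clock genes.

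Of the 18 other pairs 5 passed. TEF and CRY2 had an r of 0.49 and CRY2 and CRY1 0.47. The other 3 were within the second group and differed in sign. CRY1 and NFIL3 had 0.55 and CRY1 and NPAS2 -0.67. CLOCK and BMAL1, the partners of the activator, had 0.53 (adjusted permutation p = 0.00684), which did not pass by rho (0.37). Without 25(OH)D replicate 3, in which NR1D2, PER2, CLOCK and BMAL1 all had their lowest level, CLOCK and BMAL1 had an r of 0.35 and did not pass (adjusted permutation p = 0.123). CRY2 and CRY1 lost its call without increased cholecalciferol replicate 1 (r 0.40).

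NR1D1 had no pair past the threshold over all 34 libraries. Its r was -0.20 with its paralog NR1D2, -0.03 with DBP and -0.10 with BMAL1, and its largest was 0.41 with PER1 (rho 0.40, adjusted permutation p = 0.0534). That pair passed when any 1 of 6 libraries was left out (r 0.43 to 0.49), with an adjusted permutation p of 0.0150 without 25(OH)D replicate 7, and NR1D1 with TEF passed without 25(OH)D replicate 6 (r 0.44). PER1 also had no pair past the threshold over all libraries, and its r with PER2 was 0.28. PER1 with CRY2 passed without 25(OH)D replicate 7 (r 0.42) or increased cholecalciferol replicate 5 (r 0.43).

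**Figure D3:**
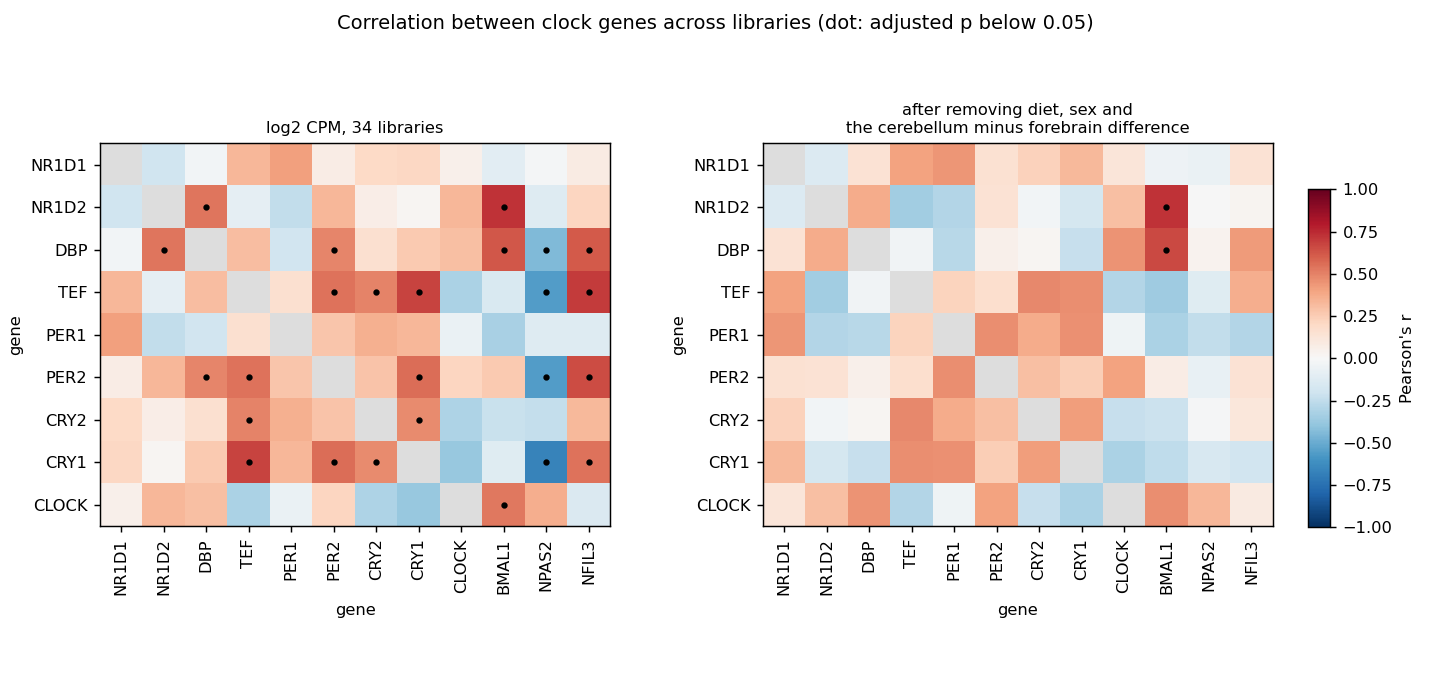
Pearson's r between clock genes across 34 libraries (colour scale from -1 to 1), from log2 CPM on the left and after removing diet, sex and the regional difference on the right; rows are the 9 clock genes, columns add BMAL1, NPAS2 and NFIL3, and dots mark an adjusted p below 0.05. On the left 18 pairs are marked, and on the right only NR1D2 with BMAL1 and DBP with BMAL1 are.

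Most of these relations moved with the regional difference. After diet, sex and that difference were removed, 2 of the 63 pairs passed, NR1D2 with BMAL1 (r 0.72) and DBP with BMAL1 (r 0.66), both with an adjusted permutation p of 0.00063. Of all pairs of tested genes, 0.354% had an r as high as the lower of these and 0.228% one as far below 0. Both are phase-opposed and both were positive, by rho as well (0.71 and 0.65). With 1 library left out they stayed at 0.68 or above and 0.62 or above. Removing diet and sex alone left 19 pairs past the threshold. There 12.9% of all pairs of tested genes had an r of the smallest size called (0.44) or more in either direction. With the file-number set removed as well 17 passed, and the share of all pairs was not computed there.

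The same reading was made within the 20 libraries with a regional difference below 2, a choice made after the 3 sets had been seen. There 6 pairs passed, all positive and all among NR1D2, DBP, CLOCK and BMAL1. Of all 63 pairs, 30 had an r above 0 in this set, and the median r was -0.07. An r above 0 was found in 7 of the 15 in-phase pairs (median r -0.09) and in 17 of the 30 phase-opposed pairs (median r 0.03). The higher medians of these 2 kinds over all 34 libraries were thus not seen within this set. Of all pairs of tested genes in these libraries, 1.71% had an r as high as the smallest of the 6 (0.65) and 1.38% one as far below 0. DBP and BMAL1 had an r of 0.79 (0.67 without the 2 libraries farthest from the median), and NR1D2 and BMAL1 0.79 (0.60). NR1D2 and DBP had 0.71 (0.66), and DBP and CLOCK 0.65 (0.62). CLOCK and BMAL1, at 0.78, fell to 0.46 without the 2 farthest libraries, and NR1D2 and CLOCK, at 0.70, to 0.36. By rho 2 of the 6 passed. Of the relations over all libraries, TEF with PER2 (-0.09), PER2 with CRY1 (-0.09), PER2 with NFIL3 (-0.03) and CRY1 with NFIL3 (-0.26) were below 0 within this set, and DBP with NPAS2 (0.04) and PER2 with NPAS2 (0.20) above 0. TEF with NFIL3 had 0.17, TEF with CRY1 0.39, DBP with NFIL3 0.21, DBP with PER2 0.16, TEF with NPAS2 -0.07 and CRY1 with NPAS2 -0.34. Within file numbers 1 to 24, 12 pairs passed over the 24 libraries, and 5 by rho, where 9.57% of all pairs of tested genes had an r of the smallest size called (0.52) or more in either direction.

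The genes in those relations had different levels in the sets of libraries. PER2 was at 12.6 to 34.4 CPM where the regional difference was below 2 and at 29.3 to 60.3 CPM where it was above 4. CRY1 was at 7.45 to 19.9 and 15.1 to 28.6 CPM, TEF at 65.0 to 122.5 and 100.2 to 148.4 CPM, and DBP at 17.4 to 41.9 and 37.0 to 61.0 CPM in the same order. Each of these 4 genes lay higher in the second set, with an overlap between the sets. NFIL3 was at 6.46 to 15.7 and 14.5 to 33.5 CPM, and NPAS2 at 9.44 to 25.6 and 4.32 to 7.25 CPM, the latter with no overlap. NR1D2 was at 8.44 to 27.1 and 16.6 to 34.3 CPM, with medians of 19.9 and 29.1 CPM. The ranges of PER1 (77.1 to 147.3 and 65.6 to 118.9 CPM) and CLOCK (30.0 to 74.7 and 42.5 to 60.2 CPM) overlapped widely. The median of PER1 was 98.2 and 109.1 CPM, and that of CLOCK 57.8 and 51.9 CPM.

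Because the regional difference falls into separate sets, no r with it is given over all 34 libraries. Within the sets 0 of 27 relations of a clock gene with the regional difference passed, the smallest adjusted permutation p being 0.670. PER2 in the 20 libraries below 2 had an r of 0.50 (rho 0.65, unadjusted permutation p = 0.0263). The set of 7 libraries from 2 to 4 held no standard or increased cholecalciferol library, so diet and this measure cannot be told apart there. With a term for the regional difference in the edgeR fit, 0 of the 9 clock genes were called in each diet comparison. Of all 13974 tested genes, 0 were called in each diet pair and 1 in the joint test.

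**Figure D4:**
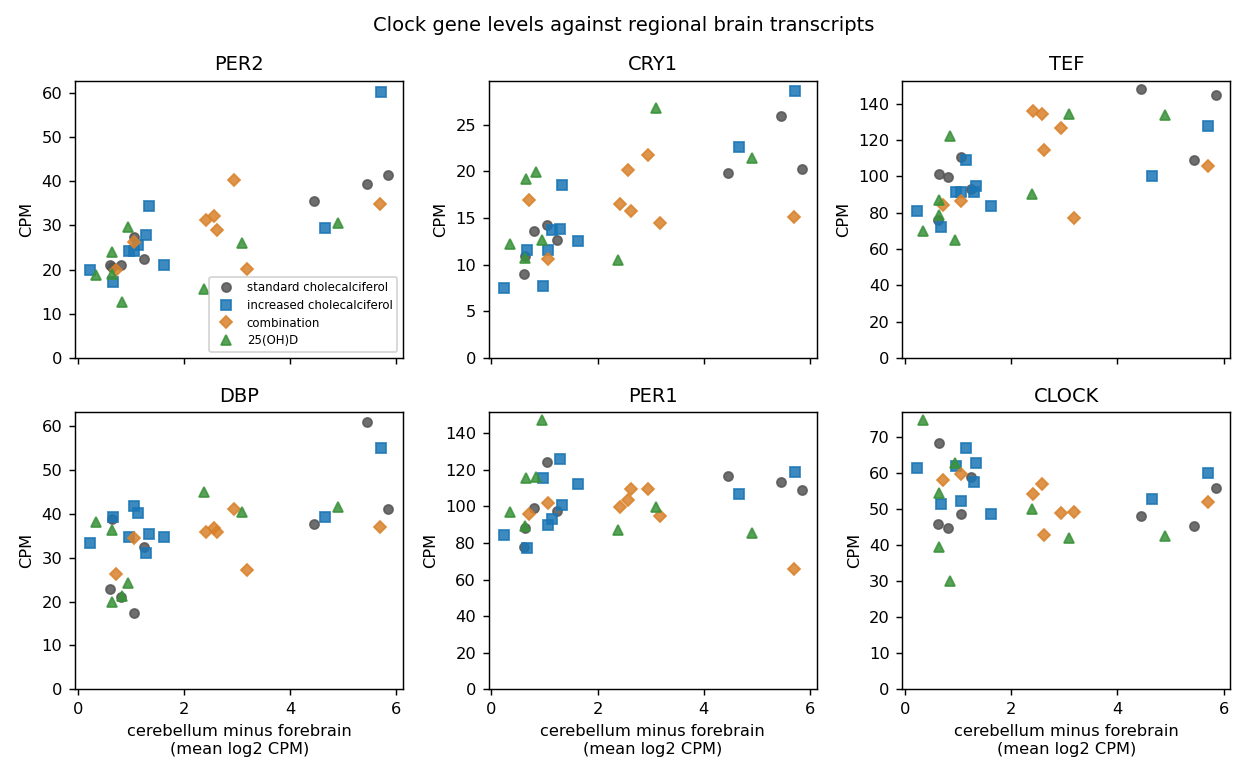
CPM of 6 clock genes (vertical axes, starting at 0) against the mean log2 CPM of cerebellar minus forebrain genes (horizontal axes), 1 point per library, shaped by diet. The libraries form 3 sets on the horizontal axis, with PER2, CRY1, TEF and DBP at higher levels to the right. PER1 and CLOCK overlap widely between the sets.

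Of the 90 relations between the 9 clock genes and 10 library measures, 6 passed. Of these, 4 were of DBP, TEF, PER2 and CRY1 with the regional difference, which span its separate sets and are not read as relations, and within the sets 0 of 27 passed. The other 2 were with the neuron list. These span the same sets and were not tested within them. The list lay at 8.42 to 9.22 in the 20 libraries below 2 and at 8.83 to 9.40 in the 7 above 4. DBP had an r of 0.59 (rho 0.59, adjusted permutation p = 0.00607) and 0.46 without the 2 farthest libraries, and PER2 had 0.55 (rho 0.45, adjusted permutation p = 0.0135) and 0.46. Within file numbers 1 to 24 these were 0.50 and 0.51 over 24 libraries and did not pass (adjusted permutation p = 0.133 for each). The neuron list had its median at 9.14 on standard cholecalciferol, 9.05 on increased cholecalciferol, 8.99 on the combination and 8.82 on 25(OH)D. The part of these lists in the levels of DBP and PER2 was not tested. The share of all tested genes with as large an r is not given here, so the relations with the neuron list are not read as particular to DBP and PER2. No relation with log2 depth, the number in the sample title, the muscle, oligodendrocyte, astrocyte and liver lists, the glucocorticoid-induced genes or the immediate early genes passed the threshold.

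The shallow libraries stood high for TEF. In file numbers 30 to 34 TEF was at 114.8 to 136.1 CPM, all 5 above the study's median of 97.2 CPM, and 4 of the 5 were combination libraries. All 5 also belong to the middle set of 7 libraries on the regional difference (2.41 to 3.10). That set's TEF median was 126.5 CPM, against 89.04 CPM in the 20 libraries below 2. Its 2 libraries from file numbers 1 to 24 lay below the study's median. These were 25(OH)D replicate 1 (90.5 CPM) and combination replicate 3 (77.2 CPM). High TEF in that set was thus found in the shallow libraries alone. The part of depth, diet and the regional difference in it was not tested. CRY1 was at 15.8 to 26.8 CPM in file numbers 30 to 34, also above its median in all 5. PER1 (99.6 to 109.5 CPM) and CLOCK (41.9 to 57.0 CPM) were in the middle of their ranges. Without these 5 libraries 0 of the 9 genes were called in each diet comparison. Of 14804 tested genes, 0 to 2 were called in the diet pairs and 8 in the joint test. At an unadjusted p under 0.05 in the edgeR test, 1 of the 9 passed for 25(OH)D against increased cholecalciferol and 2 against the combination. Of all tested genes 1513 and 1949 did. Among the pairs of genes 20 passed, and the share of all pairs was not computed there.

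To see whether the libraries line up along one order of sampling time, the levels were put on a common scale, as the number of SDs from the mean (z). The mean z of NR1D1, NR1D2, DBP and TEF was set against that of CRY1, CLOCK, BMAL1, NPAS2 and NFIL3. PER1 and PER2, though in phase, were not in the first mean, and a second reading put them in. The 2 means went in the same direction, with an r of 0.63 over 34 libraries (0.59 to 0.67 with 1 library left out), given as a description with no p. It was 0.66 in the 24 libraries of file numbers 1 to 24, 0.55 in the 20 libraries with a regional difference below 2, and 0.52 after diet, sex and the regional difference were removed. With PER1 and PER2 in the first mean, a choice added after seeing the data, the r was 0.56 over 34 libraries, and 0.59, 0.45 and 0.43 in the same further readings. Without NR1D1, the gene with the fewest reads, it was 0.66, and 0.72, 0.66 and 0.55. Libraries high in one mean thus tended to be high in the other in each of these readings, and in none was the relation negative. The genes of the second mean did not all move together, as the negative r of CRY1 with NPAS2 shows. No r between means of other gene sets is given, so that of the 2 means is not read as particular to clock genes.

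**Figure D5:**
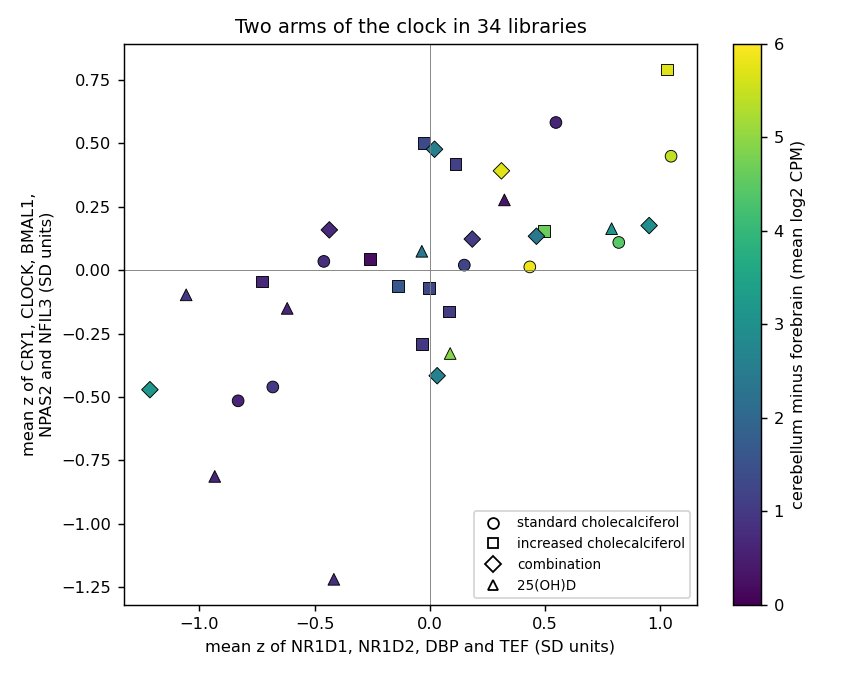
Mean z of NR1D1, NR1D2, DBP and TEF (horizontal axis) against mean z of CRY1, CLOCK, BMAL1, NPAS2 and NFIL3 (vertical axis), both in SD units, 1 point per library, shaped by diet and coloured by the regional difference. The points rise from lower left to upper right (r 0.63).

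The first of these means minus the second gives 1 value per library, from -0.96 to 0.80. Its median was 0.05 on standard cholecalciferol, -0.004 on increased cholecalciferol, -0.01 on the combination and -0.03 on 25(OH)D, and the diets overlapped (-0.49 to 0.71, -0.68 to 0.34, -0.74 to 0.77 and -0.96 to 0.80). It differed more between other sets of libraries. Its median was -0.11 in file numbers 1 to 24, 0.25 in 25 to 29 and 0.45 in 30 to 34. By the regional difference it was -0.17 in the 20 libraries below 2, 0.33 in the 7 from 2 to 4 and 0.42 in the 7 above 4, and the ranges overlapped. The libraries formed no separate clusters on it. The widest gap between neighbours, 0.22, set the lowest library apart from the other 33. A principal component analysis of the 9 clock genes gave components of 33.6%, 23.8% and 13.9% of the variance. The first was led by CRY1 (loading 0.49), TEF (0.48), PER2 (0.41) and CRY2 (0.40), with CLOCK at -0.15, and the second by NR1D2 (0.56), DBP (0.52) and CLOCK (0.42). Thus CRY1, a late gene, led the first component with TEF and PER2, and CLOCK joined NR1D2 and DBP in the second.

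The genes outside the lists with the patterns most like those of 5 clock genes were found by Spearman's rho over 34 libraries. For DBP they were ERC1 (rho 0.84), AFAP1L2, MAB21L3, LONRF1 and MEF2D (0.79). CRY1 was followed most closely by ZYX (0.82), GPSM1, ZNF219, CNTN1 and SRRT (0.81), and CLOCK by ANKS1B (0.77), CELF5, CDH10, EIF4G3 and KLF13 (0.70). For PER1 they were MTHFSD (0.72), DDX39B, U2AF2, RAC3 and SPTB (0.66), and for NR1D1 PPP1R37 (0.68), RHBDD3, U2AF2, CUEDC1 and KLC2 (0.62). These are the highest of 11134 tested genes with a symbol and are given with no test.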

How the data were processed

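Per the labels' protocols, RNA from frozen tissue was extracted with Trizol and turned into QuantSeq 3′ libraries (FWD kit). The submitters' processing notes name FastQC, TopHat, HTSeq and DESeq2. No version, build or annotation is given in the sources used here. The authors deposited 1 file per library of read counts by gene, not normalized. Of all reads in a file, 16.4 to 29.9% lay outside features and 3.63 to 4.68% were ambiguous, and both were left out of library sizes. No 2 libraries were identical, and the highest correlation over 561 pairs was 0.979.

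Diet and sex came from the labels and doses from the description of the series, which counts individuals. The members, lists and tests were chosen with earlier results of these data known. edgeR 4.0.16 (R 4.3.3) quasi-likelihood F-tests used TMM scaling, filterByExpr, diet and sex as terms over 34 libraries, Benjamini-Hochberg adjustment over 13974 genes and about 36.0 degrees of freedom. CPM of single genes are TMM-scaled, and their log2 CPM used a prior count of 3. The marker lists, and with them the regional difference, were scaled by total gene counts with an offset of 0.5. Correlations were tested by permutation with 100000 resamples, whose smallest possible p is 1e-05. Named genes were all members, BMAL1, NPAS2, NFIL3, CIART and other factors of the loop, and the 5 genes most like each of NR1D1, DBP, PER1, CLOCK and CRY1. On simulated counts for 25(OH)D against standard cholecalciferol (13691 genes), 12.3% were recovered at 1.5-fold, 50% at 2-fold and 89.2% at 4-fold, and 4 of 103 calls were false. Alternatives were DESeq2 1.42.0, limma-voom (limma 3.58.1), other scaling, filters, covariates and subsets of libraries. Overlaps of genes came from the Sscrofa11.1 RefSeq table, used for neighbours only. Sequences were not used here.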

Additional observations from a re-analysis of the deposited data

Results flagged for a closer look

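Single libraries stood apart from the rest of their diet in 4 of 36 groups made of a clock gene and a diet, each by a gap larger than Dixon's 95% critical value. Chance flags about 1 in 20 groups. Increased cholecalciferol replicate 1 was high for 3 genes, with 55.1 CPM of DBP (next 41.9), 60.3 CPM of PER2 (next 34.4) and 84.8 CPM of CRY2 (next 61.9). It also had the highest CRY1 and NFIL3 levels of the study. Combination replicate 1 was low for PER1, at 65.6 CPM (next 94.8), and had the highest NR1D2 and BMAL1 levels. Both libraries are among the 7 with a regional difference above 4, at 5.71 and 5.70. The part of that difference in these values was not tested.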

How the results depend on the processing

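The count of 0 called clock genes in each of 9 comparisons was 0 under all 390 alternatives, which included DESeq2, limma-voom, other scaling, no filter on low counts and each library left out. With DESeq2 and with limma-voom, 0 of all 13974 tested genes were called in any diet pair as well. Between the sexes 15 and 10 of them were. In these fits 0 of 9 is near the share of all genes and is not particular to the clock genes. The log2 difference of DBP between the sexes ranged from 0.20 to 0.34 and was never called. The 18 called pairs became 35 with scaling by total gene counts, where the share of all gene pairs was not computed. They became 2 with the regional difference removed, 6 in the 20 libraries below 2, and 16 to 20 with 1 library left out. In those, 14 of the 18 kept their call in every case, and 6 pairs gained one in at least 1 case, namely NR1D1 with PER1 and with TEF, PER1 with CRY2, CLOCK with NPAS2 and with CRY1, and CRY2 with NFIL3. CLOCK with BMAL1, CRY2 with CRY1 and DBP with PER2 lost it without the libraries named above, and DBP with NPAS2 without any 1 of 5 libraries (r -0.39 to -0.43). DBP with NPAS2 was at 0.034 and 0.041, and CRY1 with NFIL3 at -0.19 and -0.26, with the regional difference removed and in the 20 libraries. In the latter alone TEF with PER2 was at -0.092, PER2 with CRY1 at -0.095, PER2 with NPAS2 at 0.20 and PER2 with NFIL3 at -0.027. The 6 relations with library measures became 10 with total gene counts and 3 in file numbers 1 to 24, where fewer libraries enter. The r of 0.63 between the 2 means of z became 0.77 with total gene counts. Apart from fewer libraries, the cause was not tested. No paired analysis was possible because replicate numbers were given in accession order and pair no animals. Depth limits NR1D1 most.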
